A study of Mus musculus with 64 samples.

Results

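RNA sequencing of mouse gastrocnemius, a mixed calf muscle, was used to follow transcripts of 10 heat shock proteins and chaperones. The genes were chosen by symbol, with no threshold on a measured value. They are 10 of the 55401 genes in the count file, and all 10 were among the 15241 genes that passed the filter on low counts. They are the HSP70 proteins Hspa1a, Hspa1b, Hspa8, and Hspa5, the HSP110 protein Hsph1, the HSP90 protein Hsp90aa1, the J-domain proteins Dnaja1 and Dnajb1, and the small heat shock proteins Hspb1 and Cryab. The mice came from a C57BL/6JBomTac background and were 12 to 18 wk old. All mice carried floxed Hif1α alleles with loxP sites around exon 2, and the knockouts (HIF1α KO) additionally carried Cre under a human skeletal actin (HSA) promoter, which is active in muscle fibers, so that other cells of the muscle kept the intact allele. The controls (fl/fl) carried no Cre. Mice of each genotype ran on a treadmill for 60 min, reaching 16 m/min at an incline of 5% per the labels, or were handled as sedentary mice on a mock treadmill, at ZT3 in the light rest phase or at ZT15 in the dark active phase. Muscle was collected 3 h after the treatment, so ZT3 and ZT15 name the time of the treatment and not of collection. Each of the 8 groups held 4 males and 4 females, and 63 of 64 libraries were used. The library left out was mouse 44 (exercised HIF1α KO, ZT3), for its low coverage.

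Heat shock proteins are chaperones that hold, fold, or refold other proteins. When unfolded proteins accumulate in the cytosol, the transcription factor HSF1 binds heat shock elements in DNA and raises transcription of the inducible members, above all Hspa1a and Hspa1b, while Hspa8 is the constitutive HSP70 and Hspa5 (BiP) serves the endoplasmic reticulum under the unfolded protein response. J-domain proteins stimulate the ATPase of HSP70, Hsph1 exchanges its nucleotide, and the small heat shock proteins Hspb1 and Cryab (αB-crystallin) bind unfolding proteins without ATP and are abundant in striated muscle.

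Promoter sequences are shown for the members that passed between times of day or sexes and have a table entry, since HSF1 and the unfolded protein response act through short elements in promoters. The RefSeq promoter table of GRCm38.p6 matched 7 of the 10 members by symbol, without Hspa8, Hsp90aa1, and Cryab. Each window is the 250 bases before the RefSeq transcript start nearest to the annotated gene start, printed 5′ to 3′ on the gene's strand. Capitals mark a 2-unit heat shock element (GAANNTTC or TTCNNGAA, each its own reverse complement) or, for Hspa5, an ER stress response element (CCAAT and CCACG with 9 bases between them, searched on both strands).
Hspa1a, chr17:34972157-34972406, minus strand: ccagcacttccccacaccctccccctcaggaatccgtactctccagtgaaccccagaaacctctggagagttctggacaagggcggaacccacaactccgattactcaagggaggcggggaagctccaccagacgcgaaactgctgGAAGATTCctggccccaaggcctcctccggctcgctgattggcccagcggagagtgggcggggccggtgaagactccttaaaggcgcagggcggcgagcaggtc
Hspa1b, chr17:34959239-34959488, minus strand: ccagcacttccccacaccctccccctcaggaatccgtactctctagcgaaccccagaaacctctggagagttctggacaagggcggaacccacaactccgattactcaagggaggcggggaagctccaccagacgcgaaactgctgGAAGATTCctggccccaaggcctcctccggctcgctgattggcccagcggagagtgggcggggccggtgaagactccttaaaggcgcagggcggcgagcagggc
Hspb1, chr5:135887669-135887918, plus strand: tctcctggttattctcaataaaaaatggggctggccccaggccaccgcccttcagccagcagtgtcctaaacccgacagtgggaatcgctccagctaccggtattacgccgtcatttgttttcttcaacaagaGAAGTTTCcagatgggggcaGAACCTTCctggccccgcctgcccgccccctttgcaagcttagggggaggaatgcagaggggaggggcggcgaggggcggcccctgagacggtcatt
Dnaja1, chr4:40722218-40722467, plus strand: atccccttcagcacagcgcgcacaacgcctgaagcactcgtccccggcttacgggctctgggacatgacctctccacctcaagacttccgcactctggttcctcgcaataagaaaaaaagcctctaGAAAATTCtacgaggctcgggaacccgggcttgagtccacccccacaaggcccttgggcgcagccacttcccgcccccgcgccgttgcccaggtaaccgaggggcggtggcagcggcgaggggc
Hsph1, chr5:149636337-149636586, minus strand: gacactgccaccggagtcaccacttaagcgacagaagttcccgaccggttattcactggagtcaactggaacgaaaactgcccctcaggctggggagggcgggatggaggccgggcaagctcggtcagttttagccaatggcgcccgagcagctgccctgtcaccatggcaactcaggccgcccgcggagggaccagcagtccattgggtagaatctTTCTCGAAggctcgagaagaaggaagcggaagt
Hspa5, chr2:34771840-34772089, plus strand: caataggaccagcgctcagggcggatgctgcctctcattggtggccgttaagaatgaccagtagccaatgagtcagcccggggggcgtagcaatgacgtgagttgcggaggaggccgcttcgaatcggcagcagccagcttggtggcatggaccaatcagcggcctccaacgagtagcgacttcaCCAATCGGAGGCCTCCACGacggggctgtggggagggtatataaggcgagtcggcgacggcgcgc

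The windows of Hspa1a and Hspa1b were identical at 247 of 250 bases, and each held 1 match to the 2-unit element, starting at position -104 before the transcript start. Hspb1 held 2 matches, at -117 and -97, Dnaja1 held 1 at -124, and Hsph1 held 1 at -33, whereas the windows of Dnajb1 and Hspa5 held none. Among all 32851 promoters in the table, 12.8% held the 2-unit element in the same window, and 0.466% held 3 alternating units, which no member did. The ER stress response element was found in Hspa5, at -65, and in 0.113% of all promoters. The core of the hypoxia response element, ACGTG, was found once among the members, in Hspa5 at -155, and in 16.6% of all promoters on either strand, and the E-box CACGTG, which contains that core, was in none of the 7 windows and in 6.02% of all promoters. These matches describe letters in a window and were not tested against the measurements.

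Hspa1a (ENSMUSG00000091971.3, chromosome 17 from 34969190 to 34972156) and Hspa1b (ENSMUSG00000090877.3, chromosome 17 from 34956436 to 34959238) are neighbours on the minus strand. Of the 2916 stretches of 52 bases, the read length, in the Hspa1a transcript, 1700 (58.3%) also occur in Hspa1b, so the split of reads between these genes is uncertain. Whether reads that match both copies were counted or dropped is not given in the sources used here, and if they were dropped the levels of both genes are too low. Cryab (chromosome 9 from 50751325 to 50756636) overlaps Hspb2 on the opposite strand, Hspa1a overlaps Gm20481, and Dnaja1 overlaps Smu1 and Gm6297. The library kit keeps strand, but the strand setting of the counting is not given in the sources used here, so reads of these pairs may not be told apart. The other members are Hspa8 (chromosome 9 from 40800984 to 40810087), Hspa5 (chromosome 2 from 34771970 to 34777547), Hsph1 (chromosome 5 from 149614287 to 149636376), Hsp90aa1 (chromosome 12 from 110690605 to 110702728), Dnaja1 (chromosome 4 from 40722150 to 40737149), Dnajb1 (chromosome 8 from 83608193 to 83612653), and Hspb1 (chromosome 5 from 135887919 to 135889563). All are protein coding, and the coordinates span the whole gene on GRCm38, the assembly also named mm10.

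Total counts ranged from 2359780 to 40377963 per library, with a median of 16236352. The targeted gene, Hif1a, gave no check of the genotype here. Only exon 2 is floxed and the counts cover the whole gene, but reads of exon 2 were not examined. Why the counts did not differ was therefore not tested. The study itself reported fewer Hif1α transcripts in quadriceps of the knockouts. Hif1a ranged from 28.8 to 49.7 CPM, read counts scaled to the effective size of each library, in HIF1α KO and from 25.9 to 57.3 CPM in fl/fl libraries, and the genotypes differed by 0.0042 on the log2 scale (SE 0.0492, adjusted p = 0.979 from edgeR). Transcripts of 5 markers of all muscle fibers summed to between 154571 and 236648 CPM in every library. These are bulk samples, in which fewer cells of a type and less RNA per cell cannot be told apart. The mouse numbers in the labels run from 1 to 64, and libraries differed by block of 16 numbers, with median shares of mitochondrial rRNA of 6.55%, 1.84%, 2.67%, and 5.13% in the 4 blocks. The labels do not say what the numbers stand for.

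Per kilobase of exon, the median level over the 63 libraries was highest for Hspa8 (190 CPM per kb) and Cryab (187), followed by Hspb1 (69.1), Hspa5 (41.3), Hsp90aa1 (14.2), Hsph1 (6.84), Dnaja1 (2.79), Dnajb1 (2.06), Hspa1a (1.58), and Hspa1b (1.05). The inducible HSP70 genes had the lowest values as counted, although their order relative to Dnajb1 and Dnaja1 is uncertain because of the reads that match both copies. They were also the most variable members. Hspa1a ranged from 0.619 to 67.2 CPM with a median of 4.68, and Hspa1b from 0.309 to 72.6 CPM with a median of 2.96, where the highest library was 109 and 235 times the lowest. Hspa1a and Hspa1b had lowest counts of 6 and 3 reads, so these ratios rest on few reads at the low end. Their biological coefficients of variation around the fitted means of group and sex were 0.703 and 0.864, above those of 99.3% and 99.6% of all tested genes, whose median was 0.193. The Poisson coefficient of variation at the median count, which covers counting error only, was 0.120 for Hspa1a and 0.140 for Hspa1b. The constitutive Hspa8 and the ER chaperone Hspa5 varied 2.24-fold and 1.94-fold between the highest and lowest library. Dnajb1 also varied widely (10.7-fold, coefficient 0.435, above 94.7% of genes).

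**Figure D1:**
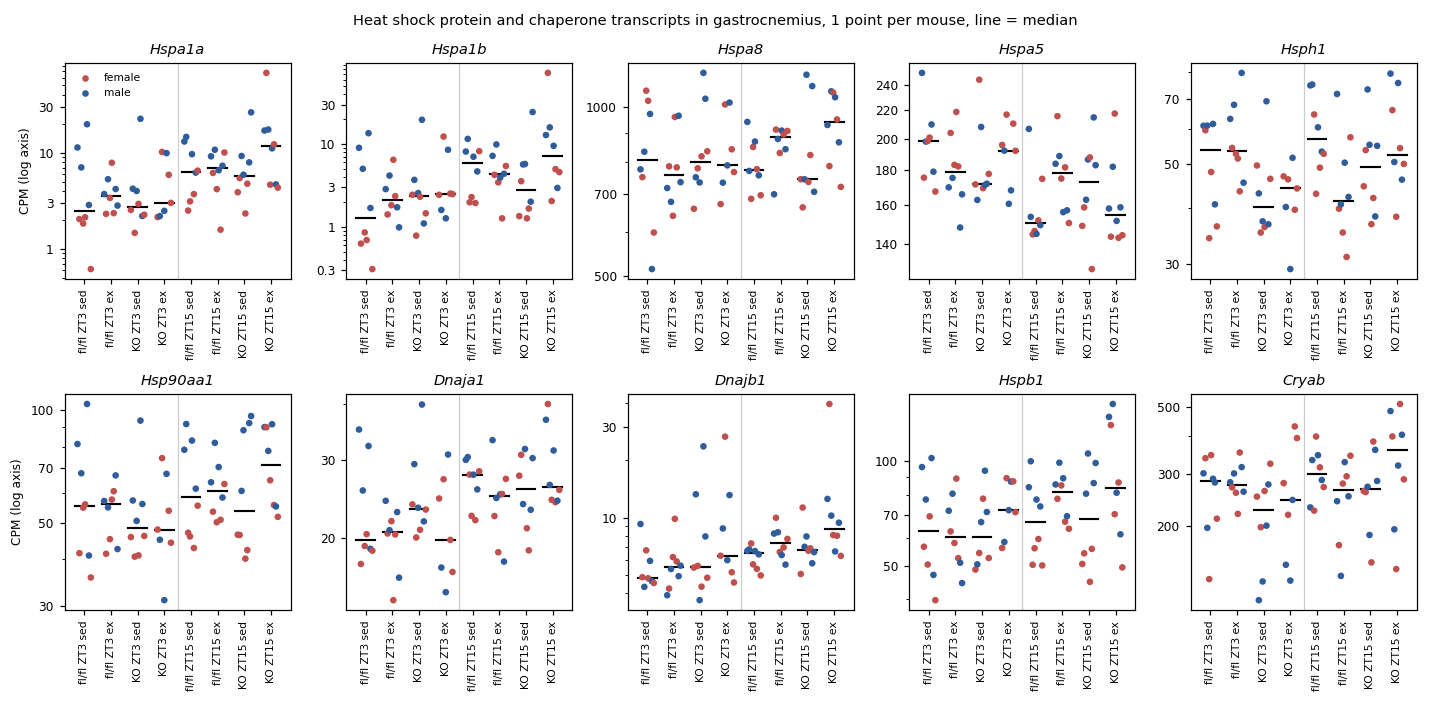
Normalized level of each member in CPM (log axis, a separate range in each panel) in 63 mice. The 8 groups are on the x axis (sed, sedentary; ex, exercised), each point is 1 mouse colored by sex, and the black line is the group median. Hspa1a and Hspa1b spread over more than a decade, while Hspa8 and Hspa5 stay within 2.24-fold and 1.94-fold.

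Time of day was the factor with the most member calls among those the study varied. Averaged over genotype and treatment, Hspa1a, Hspa1b, and Dnaja1 were higher at ZT15 and Hspa5 was lower, which is 4 of 10 members at an adjusted p under 0.1 against 8.02% of all 15241 genes tested (edgeR quasi-likelihood test with sex in the model and Benjamini-Hochberg adjustment over all genes). In all, 9 of 10 members had a positive estimate, and the median log2 fold change of the members was 0.19, beside -0.0034 over all genes.

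Hspa1a was at 0.619, 2.94, and 22.4 CPM (lowest, median, and highest of 31 libraries) at ZT3 and at 1.59, 6.53, and 67.2 CPM (32 libraries) at ZT15. The ranges overlapped over most of their length, with the ZT15 libraries higher in the middle of the distribution. ZT15 exceeded ZT3 by 0.92 on the log2 scale (SE 0.274, adjusted p = 0.0322 from edgeR). Hspa1b followed the same course, from a median of 2.35 CPM (0.309 to 19.7) at ZT3 to 4.63 CPM (1.27 to 72.6) at ZT15, a log2 difference of 0.98 (SE 0.340, adjusted p = 0.0797 from edgeR). With the counts of both copies summed to 1 gene, the log2 fold change was 0.93 (adjusted p = 0.05001 from edgeR). The highest library of both genes was mouse 9, an exercised HIF1α KO female at ZT15. Without it they were at 0.63 (adjusted p = 0.120) and 0.57 (adjusted p = 0.315) in edgeR's test, so both calls depend on that library. Leaving out 12 other libraries in turn also ended the call of Hspa1b, with an adjusted p of up to 0.183 without mouse 64. Without mouse 9 and mice 23 and 35 together, the 3 libraries with the highest Dnajb1, a choice made after the values were seen, the log2 fold changes were 0.89 and 0.94 (adjusted p = 0.00603 and 0.0263 from edgeR). Mice 23 and 35 were the highest libraries of their ZT3 groups in both genes. Within the 4 blocks of mouse numbers, the mean difference in log2 CPM between ZT15 and ZT3 was between 0.22 and 1.75 for Hspa1a and between -0.071 and 1.70 for Hspa1b.

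Dnaja1, a J-domain partner of cytosolic HSP70, had a median of 20.9 CPM (14.5 to 39.97) at ZT3 and 25.7 CPM (17.7 to 40.08) at ZT15. The medians differed while the ranges were nearly the same. Its log2 difference of 0.23 (SE 0.0720, adjusted p = 0.0376 from edgeR) kept its call without any single library, and the block difference was above 0 in 4 of 4 blocks (0.036 to 0.43). Hspa5, the HSP70 of the endoplasmic reticulum, moved the other way, from a median of 182 CPM (148 to 250) at ZT3 to 158 CPM (129 to 218) at ZT15. The ZT15 libraries reached lower than any ZT3 library, and the ZT3 libraries reached higher than any at ZT15. The fitted difference was -0.17 on the log2 scale (SE 0.0491, adjusted p = 0.0221 from edgeR), and block means differed by between -0.21 and -0.076 within blocks. Hsp90aa1, the inducible cytosolic HSP90, did not pass at a log2 difference of 0.23 (SE 0.0843, adjusted p = 0.110 from edgeR), and it passed in several alternative fits.

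**Figure D2:**
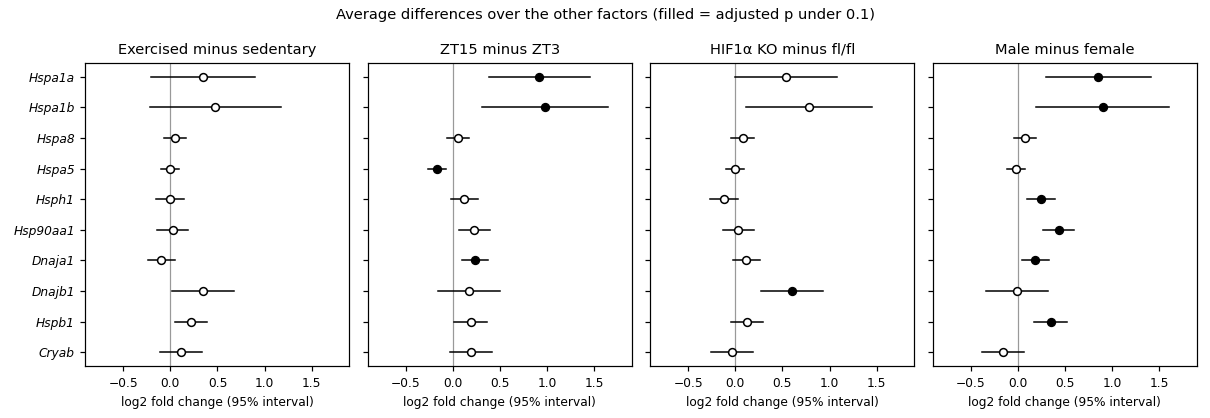
Log2 fold change of each member (points) with its 95% interval (lines) for exercise, time of day, genotype, and sex, each averaged over the other factors in 63 libraries. Filled points are the 4 time, 1 genotype, and 6 sex differences with an adjusted p under 0.1, and no member is filled for exercise.

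In the 4 combinations of genotype and treatment taken singly, no member passed in edgeR's test between times of day, where 1.88% of all genes passed in sedentary fl/fl, 1.18% in exercised fl/fl, 0.479% in sedentary HIF1α KO, and 0.663% in exercised HIF1α KO mice. At an unadjusted p under 0.05 there were 1, 1, 0, and 6 members, beside 2427, 1900, 876, and 1623 of all 15241 genes. DESeq2 called 1, 0, 0, and 1 members, beside 452, 265, 105, and 200 of all genes. The DESeq2 calls were Hspa5 in sedentary fl/fl mice (log2 fold change -0.30, adjusted p = 0.0775) and Hspa1a in exercised HIF1α KO mice (1.81, adjusted p = 0.0666). In that last group Hspa1a had a median of 11.6 CPM (4.33 to 67.2, n = 8) at ZT15 and 3.01 CPM (2.14 to 10.2, n = 7) at ZT3. Without mouse 9 the edgeR log2 fold change of Hspa1a in this group was 0.64 (adjusted p = 0.681), compared with 1.82 with it (adjusted p = 0.144). Whether the time effect differed between genotypes was tested directly, and no member passed (0 of all genes, percentage called 0, and 0 members by DESeq2). There was 1 member at an unadjusted p under 0.05, beside 648 of all 15241 genes.

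The chaperones outside the 10 members, 112 genes in 9 lists, gave 4 higher and 4 lower genes at ZT15 (7.14% called, beside 8.02% of all genes). Of 22 ER chaperones, 3 were lower, the disulfide isomerases Pdia4 and Pdia6 and the lectin chaperone Canx (log2 fold changes -0.22, -0.14, and -0.12, adjusted p = 0.0232, 0.0746, and 0.0176 from edgeR), and Herpud1, which acts in degradation of ER proteins, was higher (0.14, adjusted p = 0.0525). The ER list as a whole had a median of -0.06 with 6 of 22 positive. Fkbp5, a glucocorticoid-induced cochaperone of HSP90, had the smallest p of the higher genes (0.47, adjusted p = 2.14e-05 from edgeR), followed by the J-domain protein Dnajb4 (0.32, adjusted p = 2.88e-05). Hspa4l, an HSP110 protein, was also higher (0.25) and the mitochondrial unfoldase Clpx was lower (-0.28). None of the 4 genes listed with the heat shock factors, 3 other HSP90 proteins, 5 other small heat shock proteins, or 14 subunits of TRiC and prefoldin passed.

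No member changed with exercise at the threshold when both sexes were averaged. There were 0 calls in edgeR's test, while 2.84% of all genes passed, and 0 by DESeq2, which called 515 of all genes. There were 2 members at an unadjusted p under 0.05, beside 1661 of all 15241 genes. The 2 were Hspb1 (log2 fold change 0.22, SE 0.0886, adjusted p = 0.275 from edgeR) and Dnajb1 (0.34, SE 0.168, adjusted p = 0.442, or 0.21 without mouse 9), and the members' median was 0.08, beside -0.0037 over all genes. By single combination, edgeR called 0.236% of all genes in fl/fl at ZT3 and 0% in fl/fl at ZT15. In HIF1α KO the share was 0.131% at ZT3 and 0.0591% at ZT15. The members called were 0 in each by edgeR and by DESeq2, which called 76, 16, 62, and 37 of all genes. At an unadjusted p under 0.05 there were 0, 1, 0, and 4 members, beside 2104, 1406, 772, and 845 of all genes. The 4 were in HIF1α KO mice at ZT15, where sedentary mice had a median Hspa1a of 5.67 CPM (2.34 to 26.2) and exercised mice 11.6 CPM (4.33 to 67.2). The log2 fold changes there were 1.39 for Hspa1a, 1.80 for Hspa1b, 0.83 for Dnajb1, and 0.42 for Hspb1 (adjusted p = 0.718, 0.608, 0.745, and 0.813 from edgeR). These values depended on mouse 9, without which they were 0.30, 0.33, 0.25, and 0.30 (adjusted p of at least 0.924 from edgeR). In fl/fl mice at ZT15 the corresponding values were 0.0012, -0.11, 0.26, and 0.23. For the difference of the exercise effect between times of day, the main edgeR fit called 0% of all genes in fl/fl, in HIF1α KO, and on average. For its difference between genotypes that fit also called 0%. In fl/fl mice the first difference was called for 456 genes by DESeq2. With edgeR fitted on the compared groups alone it was called for 436. Members at an unadjusted p under 0.05 in the 4 tests of the main fit numbered 1 (Hsph1 in fl/fl, at -0.56), 0, 0, and 0. Of all 15241 genes, 2861, 342, 648, and 306 were under it. DESeq2 called 0 members in each.

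Of the other chaperones, 5 of 112 rose with exercise and 0 fell (4.46%, beside 2.84% of all genes). The largest was the small heat shock protein Hspb7 (log2 fold change 0.53, SE 0.113, adjusted p = 0.00300 from edgeR), a partner of filamin in the sarcomere, and the others were Fkbp5 (0.42, adjusted p = 0.000352), Dnajb4 (0.20, adjusted p = 0.0320), the ER J-domain protein Dnajb9 (0.16, adjusted p = 0.0453), and the HSP90 cochaperone Cdc37l1 (0.13, adjusted p = 0.0901).

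The exercise response of the inducible members was next fitted in each sex, a comparison chosen after the values were seen. In females Hspa1a, Hspa1b, and Hspb1 rose with exercise (3 of 10 members, beside 1.84% of all genes), and 10 of 10 members had a positive estimate. Hspa1a had a median of 2.52 CPM (0.619 to 6.50, n = 16) in sedentary and 4.49 CPM (1.59 to 67.2, n = 16) in exercised females. Most exercised females were above the sedentary median, and mouse 9 was far above the rest. On the log2 scale the rise came to 1.38 (SE 0.360, adjusted p = 0.0333 from edgeR) for Hspa1a, 1.73 (SE 0.461, adjusted p = 0.0386) for Hspa1b, and 0.45 (SE 0.117, adjusted p = 0.0315) for Hspb1, whose median went from 53.4 CPM (39.8 to 77.9) to 70.8 CPM (49.4 to 127). Without mouse 9, Hspa1a (0.93, adjusted p = 0.200) and Hspa1b (1.11, adjusted p = 0.268) no longer passed, and Hspb1 did (0.40, adjusted p = 0.0794). In males no member passed, beside 0.164% of all genes, and 9 of 10 estimates were negative. There 2 members were at an unadjusted p under 0.05 (Hsp90aa1 at -0.27 and Dnaja1 at -0.22), beside 685 of all 15241 genes. Male Hspa1a had a median of 8.57 CPM (2.20 to 26.2, n = 16) when sedentary and 6.56 CPM (2.19 to 17.3, n = 15) when exercised.

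The sexes were also compared within each treatment, again after the values were seen. In sedentary mice 6 of 10 members were higher in males, beside 12.9% of all genes called. In exercised mice 0 of 10 passed, beside 11.9%. There 1 member was at an unadjusted p under 0.05, beside 3077 of all 15241 genes. Sedentary males exceeded sedentary females in Hspa1a by 1.84 on the log2 scale (SE 0.355, adjusted p = 0.000151 from edgeR), which is 3.58-fold, and in Hspa1b by 2.10 (SE 0.455, adjusted p = 0.000808), which is 4.28-fold. Hspa1b had a median of 1.56 CPM (0.309 to 8.22) in sedentary females and 5.72 CPM (1.10 to 24.4) in sedentary males. All but 1 of the 16 sedentary females were below the male median, while the lower males lay among the females.

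Hsp90aa1 had the smallest p of these, with 45.9 CPM (35.8 to 56.1, n = 16) in sedentary females and 79.9 CPM (40.9 to 104, n = 16) in sedentary males (log2 difference 0.72, SE 0.106, adjusted p = 7.08e-07 from edgeR). In sedentary HIF1α KO mice at both times and in sedentary fl/fl mice at ZT15, every male was above every female (4 against 4 in each). In exercised mice the medians of Hsp90aa1 were 53.8 CPM (41.4 to 90.1) in females and 64.2 CPM (31.1 to 91.8) in males, a log2 difference of 0.14 (SE 0.108, adjusted p = 0.526). Hspb1, Dnaja1, and Hsph1 were the other members higher in sedentary males, by 0.58, 0.32, and 0.28 on the log2 scale (adjusted p = 0.000265, 0.0295, and 0.0832 from edgeR), and the call of Hsph1 was lost in 24 of 63 fits that left out 1 library. Within the 4 blocks of mouse numbers, the sedentary sex difference in mean log2 CPM was above 0 in every block for these 6 genes, between 1.31 and 1.94 for Hspa1a and between 0.51 and 0.79 for Hsp90aa1.

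**Figure D3:**
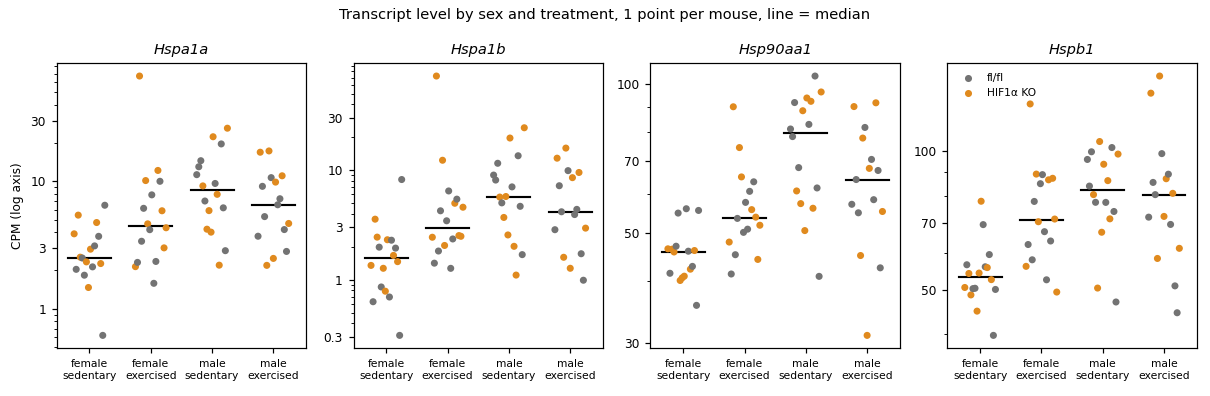
Levels of Hspa1a, Hspa1b, Hsp90aa1, and Hspb1 in CPM (log axis) by sex and treatment, 1 point per mouse (gray, fl/fl; orange, HIF1α KO), with medians as lines and genotypes and times of day pooled. Medians of Hspa1a are 2.52 and 4.49 CPM in sedentary and exercised females and 8.57 and 6.56 CPM in sedentary and exercised males.

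The change of the sex difference with exercise was itself tested and did not pass the correction. The log2 estimate was -1.96 (SE 0.496, unadjusted p = 0.000225, adjusted p = 0.857 from edgeR) for Hspa1a, -2.35 (SE 0.632, unadjusted p = 0.000482, adjusted p = 1.00) for Hspa1b, and -0.58 (SE 0.152, unadjusted p = 0.000338, adjusted p = 1.00) for Hsp90aa1. All 10 members had a negative estimate, while 0% of all genes were called. Of the members 6 were at an unadjusted p under 0.05, beside 397 of all 15241 genes. Averaged over treatments, 6 of 10 members were higher in males, beside 25.1% of all genes. The sex difference of no member changed with time of day or genotype at the threshold (0.0197% and 0.0459% of all genes called). At an unadjusted p under 0.05 there were 0 members in both, beside 528 and 1712 of all genes.

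Fiber and tissue markers moved with sex. All 8 slow-fiber markers were lower in males, summing to 397 to 1943 CPM (median 870) in males and 721 to 4181 CPM (median 1530) in females. All 5 genes listed as adipocyte markers (Adipoq, Plin1, Cidec, Lep, and Car3) were also lower. They summed to 1142 to 3644 CPM in males and 2146 to 5769 CPM in females, and that sum was not split by gene. Of 9 fast-fiber markers 4 were higher in males, of 5 blood markers 3 were higher, and of 5 fibroblast markers 4 were lower, while 0 of 5 endothelial and 0 of 4 leukocyte markers differed. With the slow-fiber score as a covariate, the sedentary sex difference kept Hspa1a (1.51, adjusted p = 0.0101 from edgeR), Hspa1b (1.64, adjusted p = 0.0419), Hsp90aa1 (0.71, adjusted p = 2.12e-05), and Hspb1 (0.55, adjusted p = 0.00458). The share of all genes called in that fit was not computed. Of the 6 calls averaged over treatments, Hsp90aa1 and Hspb1 passed with the covariate (2 members). All genes called for sex averaged over treatments went from 3821 to 2445 of 15241 with it. The part of adipose tissue in these differences was not tested. By time of day, genotype, and exercise, at most 1 marker of any of these lists passed in each direction.

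With genotype 1 of 10 members passed, which is close to the share of all genes. Averaged over time of day and treatment, Dnajb1, the J-domain protein that directs HSP70 to misfolded proteins, was higher in HIF1α KO mice by 0.60 on the log2 scale (SE 0.167, adjusted p = 0.0233 from edgeR), beside 8.26% of all genes called. Dnajb1 had a median of 6.07 CPM (3.91 to 9.99, n = 32) in fl/fl and 6.90 CPM (3.69 to 39.5, n = 31) in HIF1α KO libraries. The medians were close, and the HIF1α KO libraries extended far above the fl/fl range. The 3 highest libraries, mouse 9 (39.5 CPM), mouse 23 (26.6 CPM), and mouse 35 (23.7 CPM), were from 3 different HIF1α KO groups. Leaving out any 1 library kept the call, with log2 fold changes from 0.46 to 0.64, but without these 3 it was 0.24 (SE 0.103, adjusted p = 0.211 from edgeR), and no member passed (2 at an unadjusted p under 0.05). Within blocks of mouse numbers, the difference in mean log2 CPM was between 0.17 and 0.66.

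Hspa1b had the largest estimate of the members but did not pass, at 0.78 on the log2 scale (SE 0.341, adjusted p = 0.178 from edgeR), which became 0.05 without the same 3 mice, and Hspa1a went from 0.54 (adjusted p = 0.259) to 0.012. The remaining 7 members were between -0.12 (Hsph1) and 0.12 (Hspb1). The share of all genes called was 0.4% in sedentary mice at ZT3, 0.0459% in sedentary mice at ZT15, 1.43% in exercised mice at ZT3, and 0.4% in exercised mice at ZT15, with 0 members in each by edgeR and DESeq2. DESeq2 called 97, 19, 468, and 94 of all genes. At an unadjusted p under 0.05 there were 0, 0, 2, and 4 members, beside 1038, 1610, 2648, and 1129 of all 15241 genes. The 4 were in exercised mice at ZT15, where the log2 fold change was 1.59 for Hspa1a and 1.99 for Hspa1b (adjusted p = 0.325 and 0.310 from edgeR), with Hspa1a at a median of 6.93 CPM (1.59 to 10.7) in fl/fl and 11.6 CPM (4.33 to 67.2) in HIF1α KO mice. Without mouse 9 these log2 fold changes were 0.47 and 0.45 (adjusted p = 0.915 and 0.941 from edgeR).

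Among the other chaperones, 13 of 112 were higher and 1 was lower in HIF1α KO mice (12.5%, beside 8.26% of all genes). Of 11 mitochondrial chaperones, 4 were higher, the protease Clpp (log2 fold change 0.22, adjusted p = 0.00737 from edgeR), the nucleotide exchange factor Grpel1 (0.21, adjusted p = 0.0271), the cochaperonin Hspe1 (0.17, adjusted p = 0.0675), and the mitochondrial HSP70 Hspa9 (0.13), and the list median was 0.11. Dnajc19, a J-domain protein of the mitochondrial import motor, had the smallest p of all (0.27, adjusted p = 0.00341). Cacybp and Sugt1 of the cochaperone list had 0.23 and 0.14, and the muscle small heat shock proteins Hspb3 and Hspb2 had 0.23 and 0.19 (Hspb2 overlaps Cryab). Hyou1, an HSP110 protein of the ER, was lower (-0.23, adjusted p = 0.0285).

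Levels of several members were correlated between mice. Of the 45 pairs, 28 correlated across the 63 libraries at an adjusted p under 0.1 by permutation of Pearson's r (27 by Spearman's rho), 26 of them positively. The permutations moved libraries freely across groups, sexes, and blocks, and the share of passing pairs among other genes was not computed. The libraries share depth scaling, groups, and sexes, so r was also computed on values with the group and sex means removed. Then 16 pairs exceeded 0.5, compared with 18 before. Hspa1a and Hspa1b had r = 0.94 and rho = 0.92 (permutation p = 1e-05 for each, the smallest the permutations can give, adjusted p = 2.65e-05 and 3.46e-05), with r = 0.92 without the 2 farthest libraries, 0.93 after removal of group and sex, and 0.90 to 0.97 within blocks. The part of the shared reads of these copies in that r was not tested. Hspa1a and Hsp90aa1 had r = 0.82 and rho = 0.81 (permutation p = 1e-05 for each, adjusted p = 2.65e-05 and 3.46e-05), with r = 0.82 without the 2 libraries farthest from the median of Hspa1a, 0.75 after group and sex, and 0.72 to 0.90 within the 4 blocks. Hspa1a and Hspb1 had r = 0.79 and rho = 0.75 (permutation p = 1e-05 for each, adjusted p = 2.65e-05 and 3.46e-05), with 0.75 without the farthest libraries, 0.72 after group and sex, and 0.67 to 0.88 within blocks. Hspa5 and Cryab were less correlated with Hspa1a, with r = -0.10 and 0.21 (permutation p = 0.439 and 0.102, adjusted p = 0.507 and 0.153) and rho = -0.12 and 0.15 (permutation p = 0.363 and 0.234, adjusted p = 0.430 and 0.309). Without the farthest libraries these r were -0.048 and 0.14, and after group and sex 0.15 and 0.20. Within blocks they were between -0.26 and 0.12 and between -0.42 and 0.50. Cryab and Hsph1 passed (r = 0.37, adjusted p = 0.00562 by permutation). Hspa5 passed with negative r to Hsph1 and Cryab (-0.25 and -0.37, adjusted p = 0.0793 and 0.00669 by permutation). After group and sex, Hspa5 had r = 0.34 with Hsp90aa1 and 0.37 with Hspb1, compared with 0.083 and 0.16 as measured.

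**Figure D4:**
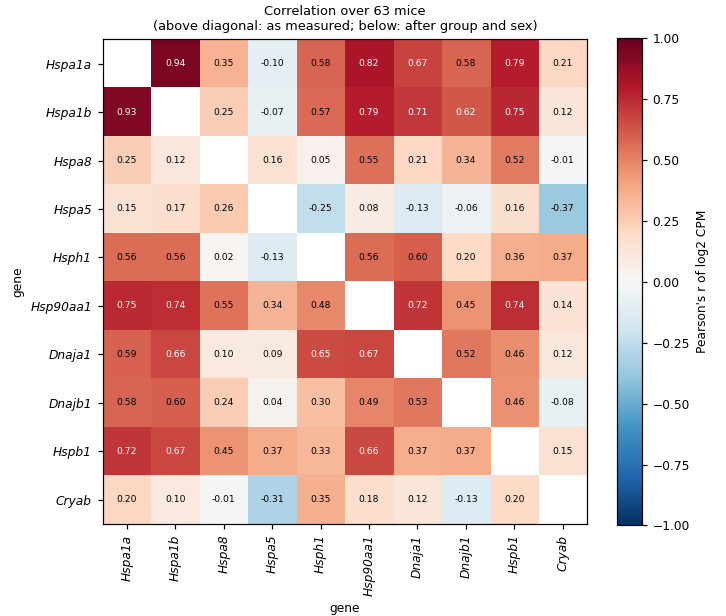
Pearson's r of log2 CPM between members over 63 libraries (color scale from -1 to 1), as measured above the diagonal and after removal of group and sex means below it. Hspa1a, Hspa1b, Hsp90aa1, Dnaja1, and Hspb1 form a block of positive values, the lowest 0.37 (Dnaja1 and Hspb1, below the diagonal). Hsph1 is also positive with each of these, at 0.36 to 0.60 above the diagonal. The values of Hspa5 and Cryab with the other members lie between -0.37 and 0.37, so the ranges meet.

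In several groups a single mouse was highest in many members. Mouse 35, a sedentary HIF1α KO male at ZT3, had the highest level of its group in 8 of 10 members, all but Hspa5 and Cryab. Mouse 14 (sedentary fl/fl, ZT15) and mouse 23 (exercised HIF1α KO, ZT3) were the highest of their groups in 6 members each, and mouse 9 in 4, Hspa1a, Hspa1b, Dnaja1, and Dnajb1. Mouse 9 had 67.2, 72.6, 40.08, and 39.5 CPM of these genes, where the next highest library of any group had 26.2, 24.4, 39.97, and 26.6 CPM.

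Cryab, the most abundant small heat shock protein of muscle among the members, varied with mouse number more than with any factor of the study. Blocks of 16 mouse numbers accounted for 60.1% of its variance in log2 CPM, compared with 13.6% for the 8 groups and 2.14% for sex. Its median was 275 CPM (231 to 485, n = 16) in mice 1 to 16, 162 CPM (114 to 278, n = 16) in mice 17 to 32, 319 CPM (201 to 399, n = 15) in mice 33 to 48, and 302 CPM (212 to 512, n = 16) in mice 49 to 64. All but 1 of the libraries of the second block were below the lowest of the first. Blocks accounted for 31.8% of the variance of Hsph1 and 28.5% of that of Hspa8, but 3.01% of that of Hspa1a and 3.05% of that of Hsp90aa1. For Hspa8 the second block was not low, with medians of 744, 831, 908, and 771 CPM. Each block held all 8 groups except mice 17 to 32, which included no exercised fl/fl mouse at ZT3. With the block as a covariate Cryab passed between times of day (log2 fold change 0.18, adjusted p = 0.0986 from edgeR), where it did not without it (0.19, adjusted p = 0.397). Calls among all genes rose as well, from 1222 without the block to 2030 with it.

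**Figure D5:**
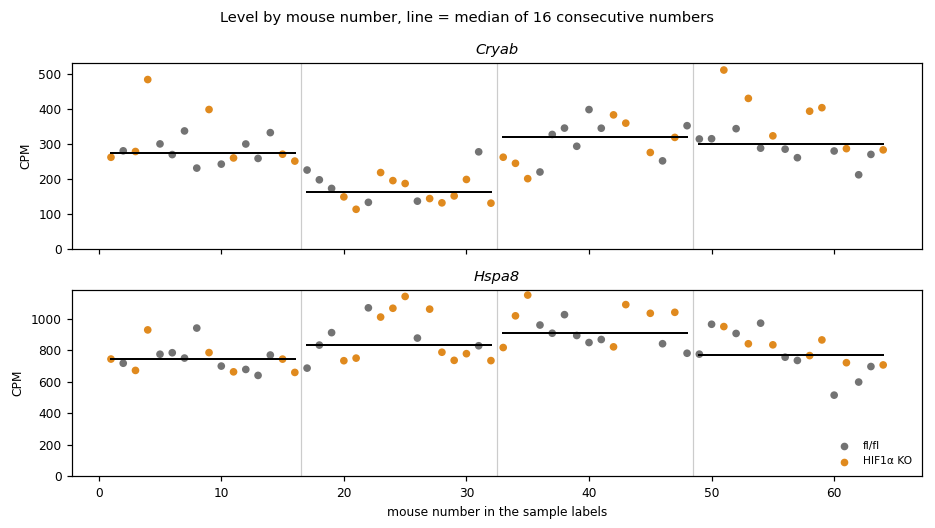
Levels of Cryab (top) and Hspa8 (bottom) in CPM by mouse number in the sample labels, 1 point per library (gray, fl/fl; orange, HIF1α KO), with the median of each block of 16 numbers as a line. The Cryab median is 162 CPM in mice 17 to 32 and between 275 and 319 CPM in the other blocks.

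The genes outside the members whose log2 CPM over the 63 libraries was most like that of a member differed by class. For Hspa1b they were Otud1 (r = 0.73), Slc38a2 (0.68), Irf2bp2 (0.66), Nfil3 (0.65), and Irf2bpl (0.62). For Hspa8 they were Ndufb10 (0.81), the HSP90 cochaperone Ahsa1 (0.79), Pmpcb (0.77), Mrps25 (0.75), and Mrpl51 (0.75). For Hspa5 they were Pdia6 (0.79), Pdia4 (0.76), Canx (0.74), Calu (0.71), and Manf (0.69), all of the endoplasmic reticulum. For Cryab they were the small heat shock protein Hspb6 (0.83), Ik (0.82), Txn2 (0.81), Ncbp2 (0.80), and Ogdh (0.80). These are the highest values of 15241 genes and are given as a description, with no test, and the libraries share depth scaling and the block of mouse numbers.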

How the data were processed

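Gastrocnemius RNA of 64 mice was sequenced as 52-bp paired reads from a stranded poly-A library kit. The authors aligned reads to mm10 with STAR and deposited raw counts per Ensembl gene from featureCounts. Tool versions, strand setting, and handling of reads with several matches are not given in the sources used here. Groups, mouse numbers, and sex were taken from the sample labels, and 1 library (mouse 44) was left out, as in the study. Of 55401 identifiers, 55141 matched GENCODE M21, which gave symbols.

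Counts were filtered (filterByExpr, minimum count 10), scaled by TMM, and fitted with edgeR 4.0.16 (R 4.3.3; robust quasi-likelihood) on 8 groups plus sex in 63 libraries, all in 1 fit. Adjusted p is Benjamini-Hochberg over all 15241 genes tested, with 0.1 as the threshold, as in the study, which used DESeq2. DESeq2 1.42.0 was an alternative here. Fold changes are on the log2 scale with SE. CPM were TMM-scaled, and log2 CPM used a prior count of 2. Correlations used 100000 permutations, adjusted over 45 pairs, and their p-values were added to what had been planned as a description. No pair of the 217 within-group library pairs was identical. The scripts were tested on simulated data.

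The members and the other gene lists were chosen with earlier results of these data known. All members were named, with at most 3 genes of smallest p from each other list past the threshold. Pdia6 and Hspa9, each the fourth of its list, were named after their values were seen. The 5 genes most like Hspa1b, Hspa8, Hspa5, and Cryab were named by r. Each library is a separate mouse. Alternatives were RLE scaling, other filters, DESeq2, other covariates, other sets of libraries, a stricter threshold, and summed Hspa1a and Hspa1b counts. Comparisons by sex and treatment, and the fit without mice 9, 23, and 35, were added after the data were seen.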

Additional observations from a re-analysis of the deposited data

Results flagged for a closer look

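In 14 of 80 combinations of member and group, 1 library stood apart from the others of its group by Dixon's criterion. For normally distributed values, chance meets it in about 1 group in 20. Here CPM were used without a log scale, Hspa1a and Hspa1b spread over more than a decade, and the combinations share mice. The 14 therefore cannot be set against that rate. Mouse 35 (sedentary HIF1α KO, ZT3) had the highest Hspa1a (22.4 CPM, the next 4.22), Hspa1b (19.7, the next 3.70), Hsp90aa1 (93.9, the next 57.4), Dnaja1 (39.97, the next 29.4), and Hsph1 (69.0, the next 49.7). Mouse 9 (exercised HIF1α KO, ZT15) had the highest Hspa1a (67.2 CPM, the next 17.3), Hspa1b (72.6, the next 15.9), and Dnajb1 (39.5, the next 12.5). Mouse 64 (sedentary HIF1α KO, ZT15) had the highest Hspa1a (26.2 CPM, the next 9.22) and Hspa1b (24.4, the next 5.75). Dnajb1 also stood apart in mouse 23 (exercised HIF1α KO, ZT3; 26.6 CPM, the next 13.1), in mouse 11 (sedentary HIF1α KO, ZT15; 11.3 CPM, the next 7.96), and in mouse 36 (exercised fl/fl, ZT3; 9.86 CPM, the next 6.21). Hspa8 was lowest in mouse 10 (exercised fl/fl, ZT15), at 699 CPM.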

How the results depend on the processing

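No difference of a member that passed changed direction in the alternatives run, while some estimates that did not pass changed sign. Between times of day in sedentary fl/fl mice, the count of members called rose from 0 to 1 (Hspa5) with at least 10 counts in every library, with the mouse-number block, and with DESeq2, and it was 0 to 1 with 1 library left out. Those 3 fits called 260, 878, and 452 of all genes, compared with 286 in the main fit. In exercised HIF1α KO mice the count of members was 1 (Hspa1a) with DESeq2 and 0 to 1 with 1 library left out. DESeq2 called 200 of all genes there, compared with 101 in the main fit. Averaged, 4 members passed between times of day, and 2 to 5 with 1 library left out. Mouse 9 gave the lowest count, since Hspa1a and Hspa1b then had log2 fold changes of 0.63 and 0.57. Hspa1b also did not pass with no filter on low counts, no sex term, or the slow-fiber covariate (adjusted p = 0.158, 0.114, and 0.106 from edgeR). These fits called 959, 1042, and 1073 of all genes, compared with 1222 in the main fit. Hsp90aa1 passed with DESeq2 (adjusted p = 0.0868), the mouse-number block (0.0874), a stricter filter (0.0802), and without the shallowest libraries (0.0966). There 1393, 2030, 888, and 1049 of all genes were called. With the slow-fiber covariate, the count for sex averaged over treatments was 2, and Hspa1a was then at 0.54. That fit called 2445 of all genes for sex, compared with 3821 in the main fit. For exercise in females 1 to 4 members passed with 1 library left out. For genotype, 0 passed without mice 9, 23, and 35. The cause of these changes was not tested. No paired analysis was possible because each mouse number occurs once in the labels. At the median count, counting error of Hspa1a and Hspa1b (Poisson coefficients of variation 0.120 and 0.140) was smaller than the spread between mice (0.703 and 0.864).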
